A study of Mus musculus with 6 samples.

Results

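The interferon regulatory factors (IRFs) are the transcripts described here, chosen by gene symbol in the deposited FPKM table. The 8 members were Irf1, Irf2, Irf3, Irf4, Irf5, Irf7, Irf8 and Irf9, out of 54532 genes in the table. The rule used gene symbols and no measured value, but the family was picked with earlier results of these data known. FPKM divides a gene's sequenced fragments by its model length and by a library size, so levels of different genes are compared per base of the gene model. That comparison depends on the model, which for Irf7 is as long as its whole span (3776 bases).

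The libraries came from macrophages of C57BL/6J mice, which the labels describe as recruited from the peritoneal cavity. WT cells (n = 3) were compared with cells of mice lacking progranulin (PGRN KO, n = 3), a secreted glycoprotein that is also delivered to lysosomes and is encoded by Grn. Every library, WT and PGRN KO alike, had been exposed in culture to Candida albicans, a yeast that can invade tissue, for 6 hours at 1 fungal cell per macrophage and 2000000 cells per well. The libraries analysed here hold no cells without the fungus, so the levels given are those of infected cells. The labels give no age or sex, and do not say whether the libraries of a group came from separate mice, so the tests measure the spread between these libraries, which may be technical. The study's methods describe bone marrow-derived macrophages and another ratio of fungus to cells for this experiment, and the labels were followed here.

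The IRFs are DNA-binding proteins that share an amino-terminal domain with conserved tryptophans, and they recognise the interferon-stimulated response element (ISRE) in gene promoters. IRF3 and IRF7 are held inactive in the cytoplasm until kinases downstream of pattern recognition receptors phosphorylate them, after which they enter the nucleus and switch on type I interferon genes. Secreted interferon then acts through IRF9, a subunit of the complex ISGF3, and interferon gamma induces IRF1. IRF4 and IRF8 bind mainly with PU.1 or BATF proteins and guide the development of macrophages, dendritic cells and B cells, whereas IRF5 is known in macrophages for driving inflammatory cytokine genes.

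In the libraries, Irf5 was significantly higher in PGRN KO than in WT macrophages, Irf8 was significantly lower, and the other 6 members did not pass the test. The ranking of the transcripts by FPKM, which depends on the model lengths, differed between the groups at 2 places. Irf5 was above Irf8 and Irf3 above Irf4 in every PGRN KO library, and the reverse held in every WT library. For Irf3 and Irf4 the order was within counting error in WT replicate 1 and PGRN KO replicate 4. The test was limma on log2(FPKM + 1) over the 8882 genes with a mean of at least 1 FPKM, with Benjamini-Hochberg adjusted p under 0.05 as the threshold. Of the 8 members, 2 were called (25%), 1 in each direction, against 24.2% of all genes tested. Among all genes tested, 10.4% were called higher and 13.8% lower in PGRN KO. The share of the members called was therefore near that of the background.

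Promoter sequences of the members were read from RefSeq windows (GRCm38.p6) that run from 250 bases before to 50 bases after each transcription start. All 8 members were matched by symbol, with 11 windows in all. The stretches of 100 bases shown, all on the + strand, are those of Irf5 and Irf8, the members that passed the test, and of Irf1 and Irf2, the other members with a match. Capitals mark GAAANNGAAA (the ISRE core), TTCNNNGAA (GAS, the gamma-activated site) and GGAANNGAAA (EICE, a composite site of PU.1 with IRF4 or IRF8), searched on both strands. They are Irf5 at chr6:29526525-29526624, Irf8 at chr8:120736168-120736267, Irf1 at chr11:53769904-53770003 and Irf2 at chr8:46739495-46739594.
Irf5: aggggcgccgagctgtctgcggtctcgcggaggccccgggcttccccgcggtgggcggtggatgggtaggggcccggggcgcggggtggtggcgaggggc
Irf8: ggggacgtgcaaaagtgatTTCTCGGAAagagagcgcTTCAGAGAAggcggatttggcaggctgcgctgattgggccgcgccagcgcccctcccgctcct
Irf1: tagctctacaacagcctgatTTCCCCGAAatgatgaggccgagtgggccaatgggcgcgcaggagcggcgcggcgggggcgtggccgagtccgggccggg
Irf2: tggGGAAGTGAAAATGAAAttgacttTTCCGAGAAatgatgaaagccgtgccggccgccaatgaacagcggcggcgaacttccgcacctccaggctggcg

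The Irf8 window held a pair of GAS matches, at 171 to 163 and 153 to 145 bases before the start. Irf1 held 1 GAS match at 90 to 82 bases before the start. Irf2 held an EICE match at 247 to 238 bases, an ISRE match at 241 to 232 bases that overlapped it, and a GAS match at 224 to 216 bases. The windows of Irf3, Irf4, Irf5, Irf7 and Irf9 held no match to these letters, which says nothing about factors bound there. Among all 32851 windows of this length, 3.44% held the ISRE letters, 8.30% the GAS letters and 2.72% the EICE letters. These matches are descriptions of sequence, and binding was not measured.

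The libraries held between 15996786 and 17551619 fragments assigned to genes, as recovered from the FPKM values and the gene lengths. The library size within the deposited FPKM was 0.925 (WT replicate 2) to 1.09 (PGRN KO replicate 5) times these fragments. Grn was at 323.5 to 336.6 FPKM in WT and at 0 to 0.0167 FPKM in PGRN KO, where at most 1 fragment was counted in a library, which matches the labels. Some macrophage markers were abundant in every library, with Lyz2 at 5657 to 8135 FPKM and Adgre1 (F4/80) at 162 to 195 FPKM. Others were low, with Fcgr1 at 4.24 to 9.95 FPKM and Mertk at 1.14 to 3.84 FPKM. Of 9 markers of resident peritoneal macrophages, 7 were tested, of which 3 rose, 1 fell and 3 did not pass, and their summed FPKM, most of it F10, was 468 to 510.3 in WT and 310.3 to 391 in PGRN KO. Of the defining ones, Gata6 was at 3.78 to 5.07 FPKM and Timd4 at 0.204 FPKM or less. The part of these cells in the IRF values was not tested. PGRN KO replicate 6 stood apart, with a quality weight (estimated by limma, lower for libraries that vary more) of 0.09 against 1.07 to 3.79 for the other 5 libraries.

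IRF5 (Irf5, ENSMUSG00000029771, chromosome 6, 29526625 to 29541871, + strand) is activated downstream of Toll-like receptors and MyD88. Its level was 34.8, 39.2 and 32.5 FPKM in WT and 63.6, 52.0 and 71.2 FPKM in PGRN KO. Every PGRN KO library was above every WT library, with means of 35.5 ± 3.41 and 62.3 ± 9.65 FPKM (SD, n = 3 each), a ratio of 1.75. Irf5 rose by 0.79 ± 0.14 (SE) on the log2(FPKM + 1) scale, with a 95% interval from 0.46 to 1.11 (limma, Benjamini-Hochberg adjusted p = 0.00925). Without WT replicate 1 the adjusted p was 0.0510, and without PGRN KO replicate 6 the difference was 0.69 with an adjusted p of 0.00553. Irf5 shares 1045 bases of its span with Tnpo3 on the opposite strand, which was at 2.999 to 4.98 FPKM in all libraries. The library kit does not mark strand, so reads of these bases cannot be told apart.

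IRF8 (Irf8, ENSMUSG00000041515, chromosome 8, 120736358 to 120756694, + strand) is required for monocyte and dendritic cell development and works with PU.1 at macrophage genes. Its level was 52.7, 53.9 and 57.5 FPKM in WT and 41.5, 29.3 and 39.9 FPKM in PGRN KO. The groups did not overlap, with means of 54.7 ± 2.51 and 36.9 ± 6.65 FPKM (SD, n = 3 each), a ratio of 0.674. Irf8 fell by 0.57 ± 0.14 (SE) on the log2(FPKM + 1) scale, with a 95% interval from -0.91 to -0.24 (limma, Benjamini-Hochberg adjusted p = 0.0293). The adjusted p was 0.0945, 0.0958 and 0.103 when WT replicate 1, 2 or 3 was left out, and 0.0153 without PGRN KO replicate 6. A read-through gene model on the same strand, Gm20388, spans the whole of Irf8 and was listed at 0 in every library.

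IRF4 (Irf4, ENSMUSG00000021356, chromosome 13, 30749226 to 30766976, + strand) is the closest relative of IRF8 and is linked to alternative macrophage activation and plasma cell formation. Its level was 3.69, 3.67 and 4.23 FPKM in WT and 3.30, 2.75 and 2.35 FPKM in PGRN KO. The groups did not overlap, but the difference of -0.36 ± 0.12 (SE) on the log2(FPKM + 1) scale did not pass the test (limma, Benjamini-Hochberg adjusted p = 0.0654). Irf4 rested on 199 to 374 fragments per library, for which counting error alone gives 95% intervals of up to ±14.2% of the value. The adjusted p was 0.0498 without PGRN KO replicate 4. The ratio of Irf8 to Irf4 was 13.6 to 14.7 in WT and 10.7 to 17.0 in PGRN KO, so the groups overlapped in it.

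**Figure D1:**
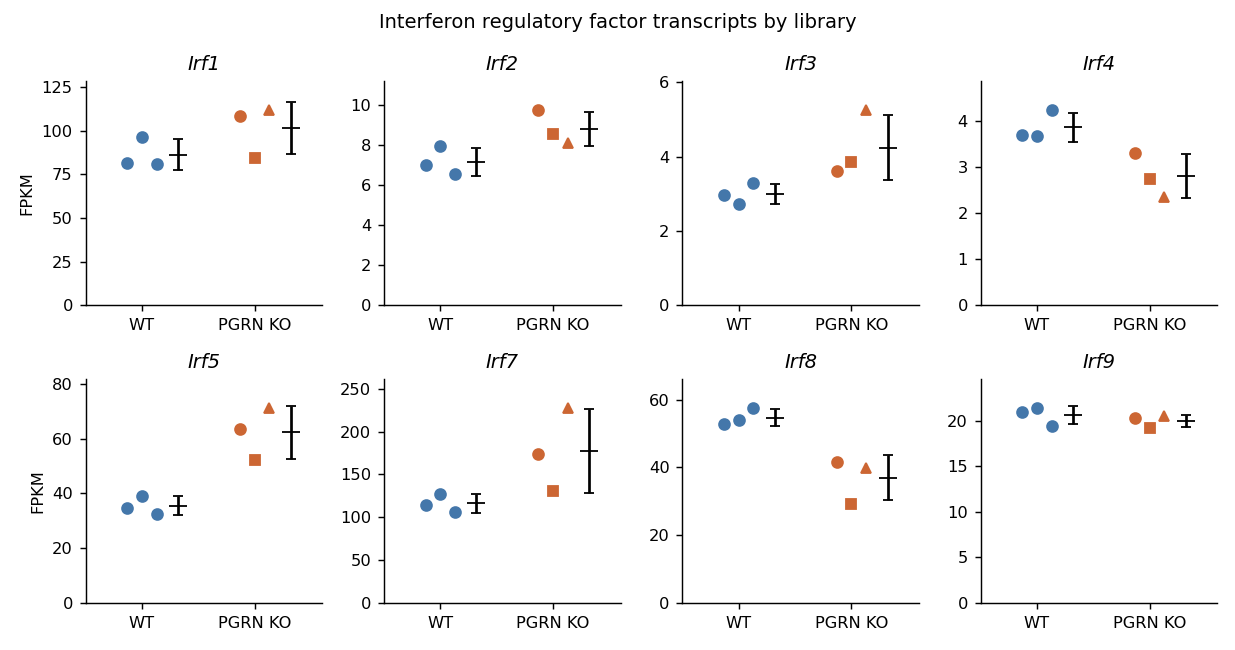
Level of each of the 8 IRF transcripts in FPKM (y axis, linear from 0) in WT (blue) and PGRN KO (orange, with circle, square and triangle for replicates 4, 5 and 6). Black bars give the mean and SD of the 3 libraries. Irf5 lay between 32.5 and 39.2 FPKM in WT and between 52.0 and 71.2 FPKM in PGRN KO, while Irf8 lay between 52.7 and 57.5 FPKM in WT and between 29.3 and 41.5 FPKM in PGRN KO.

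Dendritic cells and B cells also express Irf8 and Irf4, so their markers were read in every library. Of 12 dendritic cell markers, 5 were below every WT library in all PGRN KO libraries and 1 was above. That share was near the 48.8% of all tested genes whose groups did not overlap, but the 12 include markers too low to be tested. Of the 5 dendritic markers tested, 2 fell and 3 did not pass. Those that fell were Ccr7, at 25.5 to 32.4 FPKM in WT and 14.4 to 18.2 FPKM in PGRN KO, and Fscn1. Fscn1 was at 11.9 to 13.6 FPKM in WT and 4.82 to 7.13 FPKM in PGRN KO. Xcr1, a receptor of cross-presenting dendritic cells, was too low to be tested. It was at 1.17, 1.34 and 0.971 FPKM in WT and 0.324, 0.451 and 0.390 FPKM in PGRN KO. Clec9a, another untested dendritic marker, overlapped between the groups, at 0 to 0.0673 FPKM in WT and 0.0176 to 0.0802 FPKM in PGRN KO. The summed FPKM of the dendritic list, most of it Bst2, was 349 to 388 in WT and 315 to 618 in PGRN KO, and Cd209a was listed at 0 in every library. Of 11 B cell and plasma cell markers, 10 were above every WT library, with a summed FPKM of 10.2 to 11.7 in WT and 28.3 to 33.7 in PGRN KO. The remaining one, Jchain, was below every WT library, at 0.110 FPKM or less throughout. Only 4 of the 11 were high enough to be tested, and these rose. Among the defining B cell markers, Cd79a was at 0.697 to 1.35 FPKM in WT and 3.25 to 4.53 FPKM in PGRN KO. The part of these cells in the Irf5, Irf8 and Irf4 values was not tested. In bulk libraries, fewer cells of a type and less RNA per cell cannot be told apart.

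The other lists of cell markers are given by their summed FPKM. The sum of 8 mast cell markers was 2.29 to 3.19 in WT and 9.72 to 14.0 in PGRN KO. Only 2 of these were tested, and they rose, while 2 were listed at 0 in every library. Kit had a lower mean in PGRN KO, with overlapping groups, at 0.218 to 0.423 FPKM in WT and 0.130 to 0.343 FPKM in PGRN KO. The sum of 11 T and NK cell markers, of which the 1 tested did not pass, was 3.798 to 4.63 against 5.56 to 9.003. Of 10 neutrophil markers, the sum was 80.2 to 87.2 against 53.0 to 54.5, with Ly6g and Elane listed at 0 in every library. Only 3 of the 10 were tested, of which 1 fell and 2 did not pass, so the sum does not describe the list as a whole. For 9 fibroblast and mesothelial markers the sum was 1.12 to 1.19 against 2.07 to 3.76, with no gene high enough to be tested. For 9 macrophage markers the sums overlapped, at 11699 to 12631 against 10495 to 14447, and 7 of the 9 did not pass the test. Mertk rose and Csf1r fell.

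IRF7 (Irf7, ENSMUSG00000025498, chromosome 7, 141262706 to 141266481, - strand) amplifies type I interferon production and is itself induced by interferon. It was the most abundant member in all 6 libraries, at 114.6, 127.5 and 106.3 FPKM in WT and 173.8, 130.7 and 227.5 FPKM in PGRN KO. The groups did not overlap, although PGRN KO replicate 5 was only slightly above the highest WT library. The means were 116.1 ± 10.7 and 177.3 ± 48.5 FPKM (SD, n = 3 each), and the difference of 0.57 ± 0.20 (SE) on the log2(FPKM + 1) scale, with a 95% interval from 0.10 to 1.04, did not pass the test (limma, Benjamini-Hochberg adjusted p = 0.0775). Irf7 did pass when FPKM was rescaled to TPM (adjusted p = 0.0154) and without PGRN KO replicate 5 (adjusted p = 0.0252). The difference without PGRN KO replicate 6 was 0.38, against 0.77 without replicate 5.

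IRF3 (Irf3, ENSMUSG00000003184, chromosome 7, 44997648 to 45002848, + strand) is the constitutive partner of IRF7 and is regulated mainly by phosphorylation. Its level was 2.97, 2.73 and 3.28 FPKM in WT and 3.62, 3.85 and 5.24 FPKM in PGRN KO. The groups did not overlap, and the difference of 0.38 ± 0.14 (SE) on the log2(FPKM + 1) scale did not pass the test (limma, Benjamini-Hochberg adjusted p = 0.0832). Irf3 had the fewest fragments of the members, 139 to 312 per library, with counting intervals of up to ±17.0% of the value. The ratio of Irf7 to Irf3 was 32.4 to 46.7 in WT and 33.9 to 48.0 in PGRN KO. In the infected macrophages of both genotypes the inducible member of the pair was thus far above the constitutive one.

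IRF9 (Irf9, ENSMUSG00000002325, chromosome 14, 55603571 to 55610030, + strand) is the DNA-binding subunit of ISGF3. Its level was 20.95, 21.4 and 19.4 FPKM in WT and 20.3, 19.2 and 20.5 FPKM in PGRN KO. The groups overlapped, with a difference of -0.04 ± 0.08 (SE) on the log2(FPKM + 1) scale and a 95% interval from -0.24 to 0.16 (limma, Benjamini-Hochberg adjusted p = 0.745). The sign of this small difference was positive in 4 of 18 other settings. Irf9 shares 123 bases with Rnf31 on the same strand, a subunit of the linear ubiquitin ligase, which was at 8.21 to 9.28 FPKM in WT and 12.9 to 16.1 FPKM in PGRN KO.

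IRF1 (Irf1, ENSMUSG00000018899, chromosome 11, 53770014 to 53778374, + strand) is induced by interferon gamma and by NF-kappaB, and it activates antigen processing genes and guanylate-binding proteins. Its level was 81.5, 96.5 and 81.1 FPKM in WT and 108.6, 84.5 and 111.8 FPKM in PGRN KO. PGRN KO replicate 5 lay within the WT range, and the difference of 0.23 ± 0.14 (SE) on the log2(FPKM + 1) scale did not pass the test (limma, Benjamini-Hochberg adjusted p = 0.265, 95% interval from -0.10 to 0.55).

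IRF2 (Irf2, ENSMUSG00000031627, chromosome 8, 46739732 to 46847458, + strand) binds the same sites as IRF1 and often opposes it. Its level was 6.99, 7.94 and 6.53 FPKM in WT and 9.74, 8.55 and 8.10 FPKM in PGRN KO. The groups did not overlap, and the difference of 0.26 ± 0.11 (SE) on the log2(FPKM + 1) scale did not pass the test (limma, Benjamini-Hochberg adjusted p = 0.117), but it did without PGRN KO replicate 6 (adjusted p = 0.0417). The ratio of Irf1 to Irf2 was 11.7 to 12.4 in WT and 9.88 to 13.8 in PGRN KO, a wider range that held the WT values. The relation of activator to antagonist transcript therefore overlapped between the groups.

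**Figure D2:**
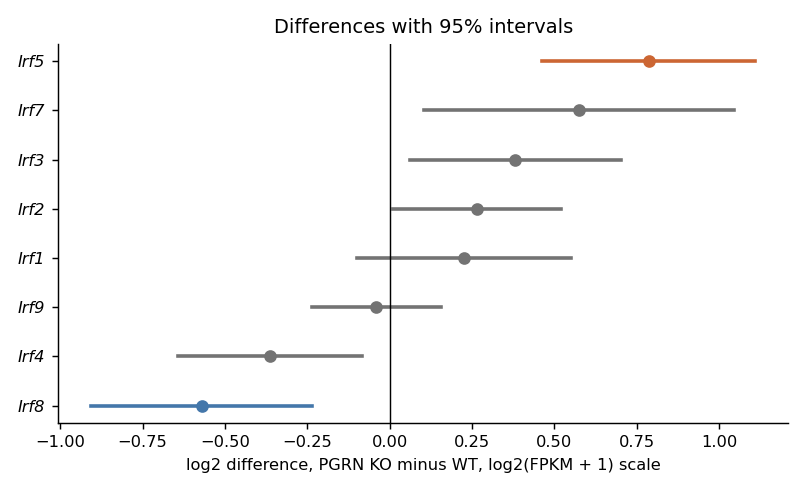
Difference between PGRN KO and WT for each member on the log2(FPKM + 1) scale (x axis), with the 95% interval of the limma fit, not adjusted for the number of genes, as a bar. Irf5 (orange, 0.79) passed the adjusted threshold above 0 and Irf8 (blue, -0.57) below 0, and the 6 members in grey did not pass.

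Across the family, the libraries of the groups did not overlap for 6 of 8 members (75%), against 48.8% of all genes tested. These were Irf2, Irf3, Irf5 and Irf7, higher in PGRN KO, and Irf4 and Irf8, lower in PGRN KO. The same 6 members had an unadjusted p under 0.05. The median difference of the members was 0.25 on the log2(FPKM + 1) scale, against -0.03 for all genes tested. All 8 members were above the minimum of 1 FPKM in every library.

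The order of the levels was identical in the 3 libraries of a group. In WT it was Irf7, Irf1, Irf8, Irf5, Irf9, Irf2, Irf4 and Irf3 from high to low, and in PGRN KO it was Irf7, Irf1, Irf5, Irf8, Irf9, Irf2, Irf3 and Irf4. No neighbours in either order overlapped over the 3 libraries of the group. The ratio of Irf5 to Irf8 was 0.660, 0.728 and 0.564 in WT and 1.53, 1.78 and 1.78 in PGRN KO. For Irf3 to Irf4 it was 0.804, 0.744 and 0.777 in WT and 1.10, 1.40 and 2.23 in PGRN KO. These ratios, chosen after the values were seen and given without a test, lay below 1 in every WT library and above 1 in every PGRN KO library. Their place around 1 depends on the model lengths, 2905 bases for Irf5 and 7055 for Irf8. The change of a ratio between groups does not. By fragments, Irf8 was above Irf5 in every library, at 5069, 3909 and 4869 against 3199, 2862 and 3575 in PGRN KO. The 95% counting intervals of Irf3 and Irf4 overlapped in WT replicate 1 and PGRN KO replicate 4, and neither gene passed the test. The summed FPKM of the 8 members was 311 to 353 in WT and 331 to 487 in PGRN KO. Of this sum Irf7 took 34.2% to 36.1% in WT and 39.5% to 46.7% in PGRN KO, and Irf8 took 15.3% to 18.5% and 8.21% to 9.78%.

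**Figure D3:**
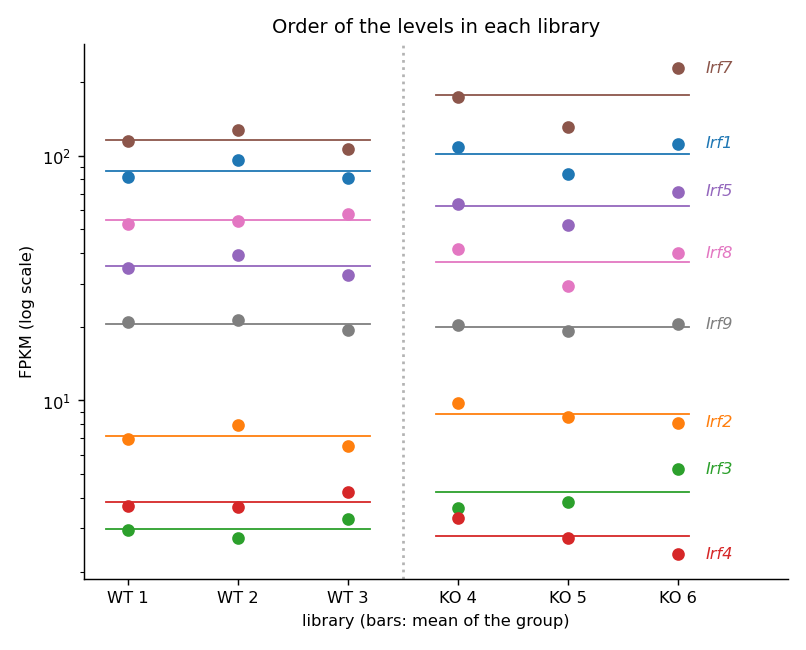
FPKM of the 8 members in each library (points, log axis), with a bar at the mean of each group. The points of Irf8 lie above those of Irf5 in the WT libraries and below them in the PGRN KO libraries, and Irf4 and Irf3 exchange places in the same way. For Irf4 and Irf3 the counting intervals, not drawn, overlap in WT 1 and KO 4.

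The genes whose pattern over the 6 libraries was most like that of a member were found by the root mean square difference of centred log2(FPKM + 1) values. For Irf5 these were Rasa4 (0.03), Apool (0.05) and Tap1 (0.05), the last a subunit of the peptide transporter for MHC class I, at 62.0 to 78.6 FPKM in WT and 93.4 to 135.6 FPKM in PGRN KO. For Irf8 they were Slamf8 (0.07), Slc8b1 (0.08) and Zfp959 (0.09). Slamf8, a macrophage surface receptor, was at 16.4 to 16.7 FPKM in WT and 9.61 to 12.4 FPKM in PGRN KO.

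Proteins that bind DNA with the IRFs, or that hold them in the nucleus, were read next. Of 14 tested, 2 rose, 1 fell and 11 did not pass, with a median difference of -0.07 on the log2(FPKM + 1) scale. The share called was 21.4%, near the 24.2% of all genes tested. Stat2, which encodes a subunit of ISGF3, was at 44.5, 46.2 and 41.1 FPKM in WT and 72.3, 64.9 and 57.1 FPKM in PGRN KO, a rise of 0.54 ± 0.11 (SE) on the log2(FPKM + 1) scale (limma, Benjamini-Hochberg adjusted p = 0.0157). Stat2 thus passed the test and Irf9 did not, although the difference between these genes was not itself tested.

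Among the partners of IRF4 and IRF8, Batf fell by 0.52 on the log2(FPKM + 1) scale, from 11.3 to 13.1 FPKM in WT to 7.39 to 9.09 FPKM in PGRN KO (limma, Benjamini-Hochberg adjusted p = 0.0159). Spi1, which encodes PU.1, was at 69.8 to 81.5 FPKM in WT and 45.4 to 69.5 FPKM in PGRN KO, and did not pass (limma, Benjamini-Hochberg adjusted p = 0.0832). Batf2, which pairs with IRF1 and IRF8 in activated macrophages, was at 14.8 to 20.6 FPKM against 20.0 to 34.4 FPKM, with overlapping groups and an adjusted p of 0.0596 by limma with Benjamini-Hochberg. Batf3 was below 0.8 FPKM in every library and was not tested. The IRF2-binding corepressors Irf2bp1, Irf2bp2 and Irf2bpl had differences of 0.05, 0.18 and 0.26 on the log2(FPKM + 1) scale and did not pass.

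The sensors, adaptors and kinases that lead to phosphorylated IRF3, IRF5 and IRF7 numbered 24 tested genes. Of these, 3 rose, 2 fell and 19 did not pass, with a median difference of 0.02 on the log2(FPKM + 1) scale. The share called, 20.8%, was near the 24.2% of all genes tested. The kinases of IRF3 and IRF7, Tbk1 and Ikbke, had differences of 0.02 and 0.17 and did not pass. Those that rose were the RNA sensors Tlr3 and Ddx58 (RIG-I) and the TBK1 adaptor Azi2, by 1.35, 0.69 and 0.53. Tlr3 was at 1.65, 2.04 and 1.596 FPKM in WT and 7.84, 5.68 and 4.91 FPKM in PGRN KO. The genes that fell, named after their values were seen, were Ticam1 (TRIF, the adaptor of TLR3) at -0.52 and Slc15a4, a lysosomal transporter needed for IRF5 activation by endosomal receptors, at -0.37.

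Ubiquitin ligases, proteases and other brakes on the IRFs numbered 15 tested genes, of which 5 rose, 2 fell and 8 did not pass, with a median of 0.09 on the log2(FPKM + 1) scale. Trim21, an interferon-induced ligase that acts on several IRFs, rose by 0.98, from 10.9 to 13.4 FPKM in WT to 22.4 to 26.9 FPKM in PGRN KO. Usp18, the protease that removes ISG15 and dampens the type I receptor, rose by 0.88, and Herc6, the mouse ISG15 ligase, by 0.78. Of 8 interferon receptor and Janus kinase genes upstream of IRF9 and IRF1, 25% were called, near the 24.2% of all genes tested. Tyk2 rose by 0.62 and Jak1 fell by 0.62 on the log2(FPKM + 1) scale, and the others did not pass. Jak1 was at 59.9 to 65.6 FPKM in WT and 34.0 to 44.7 FPKM in PGRN KO. The receptor genes themselves were thus not among those that passed.

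Interferon genes, of which the type I genes are controlled by IRF3 and IRF7, were mostly at 0 FPKM at this time point. Of 20 listed, 14 were listed at 0 in every library and 2 were tested. Ifnb1 was at 5.66, 6.94 and 3.62 FPKM in WT and 7.39, 5.42 and 8.95 FPKM in PGRN KO, with overlapping groups (limma, Benjamini-Hochberg adjusted p = 0.274). Ifng, the type II interferon and not a gene known for control by IRF3 or IRF7, was at 8.73 to 10.8 FPKM in WT and 7.26 to 11.5 FPKM in PGRN KO (limma, Benjamini-Hochberg adjusted p = 0.908). Neither was below an unadjusted p of 0.05, nor did either pass in limma voom on the recovered fragments, so no difference was detected in the 2 interferon genes that could be tested.

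Targets of the factors were read by list, against 10.4% of all tested genes called higher and 13.8% called lower, and the lists were not tested against each other. Of 28 genes known as targets of ISGF3 or IRF3, all tested, 18 rose, 0 fell and 10 did not pass in limma, with a median difference of 0.77 on the log2(FPKM + 1) scale against -0.03 for all genes tested. At an unadjusted p under 0.05, 21 were higher and 0 lower, and limma voom on the recovered fragments called 18 higher and 0 lower. The largest rises were those of Mx1, Cmpk2 and Ifi44, by 1.91, 1.67 and 1.63. Mx1, an antiviral GTPase, was at 17.7, 19.7 and 15.0 FPKM in WT and 80.5, 58.4 and 67.3 FPKM in PGRN KO. Of 24 tested IRF1 targets, 16 rose, 1 fell and 7 did not pass, with a median of 0.92. Il15ra and Il15, which form the trans-presented cytokine IL-15, rose by 1.77 and 1.67, and the guanylate-binding protein Gbp5 by 1.49. The IRF1 target that fell was Ptgs2 (COX-2), named after its values were seen. These lists were chosen with earlier results of these data known, and the factors share many of these targets.

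The targets of IRF8 and IRF4 in myeloid cells went both ways. Of 22 tested, 4 rose, 4 fell and 14 did not pass, with a median of -0.18 on the log2(FPKM + 1) scale. Il18 and Cd40 rose by 1.09 and 1.06. Arg1, which encodes arginase 1, fell by 0.97, from 174.9 to 233.2 FPKM in WT to 89.6 to 114.5 FPKM in PGRN KO. Chil3, named after its values were seen, rose by 0.82, from 1283 to 1395 FPKM in WT to 2176 to 2566 FPKM in PGRN KO. Of 11 genes of the inflammatory response listed as IRF5 targets, 0 rose, 1 fell and 10 did not pass in limma, with a median of -0.26. The list does not separate genes that IRF5 raises from genes that it lowers. At an unadjusted p under 0.05, and also in limma voom, 0 were higher and 2 lower. The gene that fell was Il10, an anti-inflammatory cytokine, at 229.3, 289.4 and 175.9 FPKM in WT and 75.1, 68.0 and 88.6 FPKM in PGRN KO, a fall of 1.55 ± 0.19 (SE) on the log2(FPKM + 1) scale (limma, Benjamini-Hochberg adjusted p = 0.0034).

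**Figure D4:**
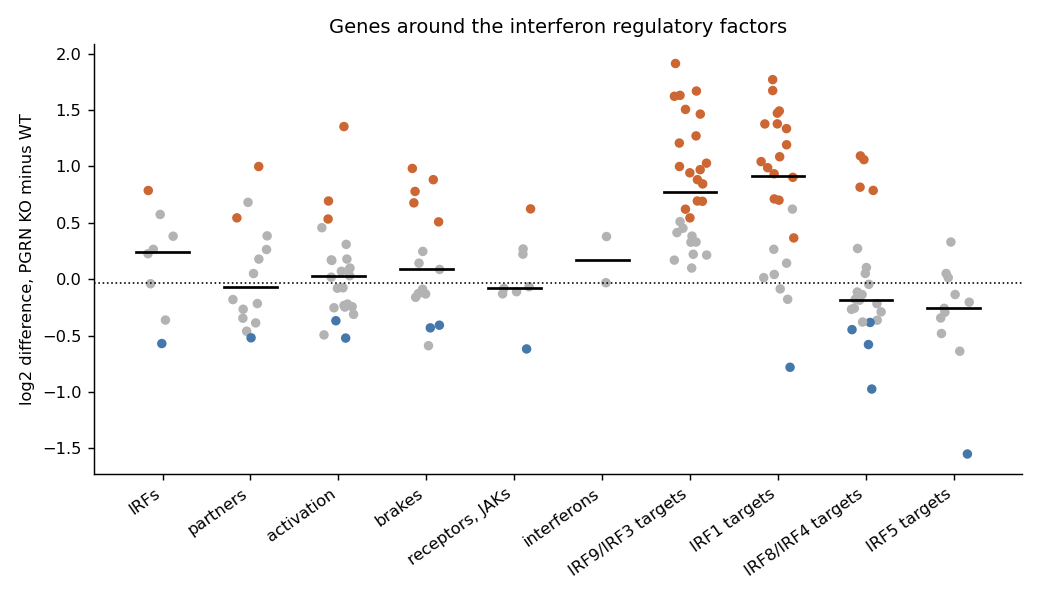
Difference between PGRN KO and WT on the log2(FPKM + 1) scale for each tested gene of the IRF family and of the lists around it (points, orange for significantly higher, blue for significantly lower, grey for not passed), with a bar at each list's median and a dotted line at the median of all genes tested (-0.03). The targets of ISGF3/IRF3 (label IRF9/IRF3) and of IRF1 have medians of 0.77 and 0.92, while the lists of partners, kinases and receptors lie near the dotted line.

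The calls of the family depended on the setting to different degrees. Over 18 other settings of filter, scale, variance model and libraries, Irf5 passed in 17 and Irf8 in 13. Irf7 passed in 6, Irf2 in 4, and Irf1 and Irf9 in none. Irf3 passed in 3 and Irf4 in 2 of the 17 settings that tested them. The differences of Irf5 ranged from 0.69 to 0.91 and those of Irf8 from -0.66 to -0.42 on the log2 scale, so neither changed direction.

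**Figure D5:**
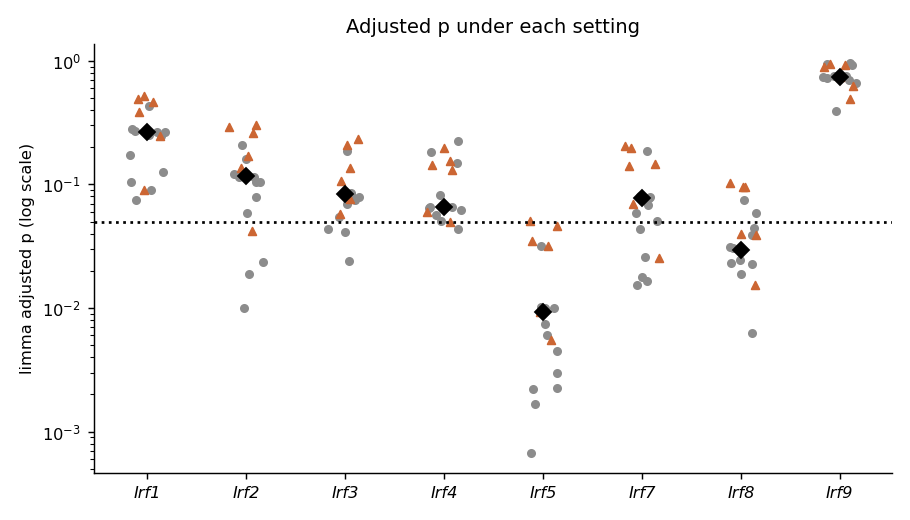
Adjusted p of each member in the reported fit (black diamonds), in settings that leave out 1 library (orange triangles) and in the other settings (grey circles), on a log axis, with the threshold of 0.05 dotted. All but 1 of the points of Irf5 lie below the line, whereas those of Irf1 and Irf9 lie above it.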

How the data were processed

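RNA was sequenced from 6 libraries, 3 WT and 3 PGRN KO, with groups taken from the labels. The authors deposited 1 table of FPKM values per gene for 54532 genes. The submitters' processing notes name CASAVA, HISAT2 2.0.5, featureCounts 1.5.0-p3 and DESeq2 1.20.0 with mm10/GRCm38, while the study's methods name HTSeq for counting, so which counter made the table is unsettled. Coordinates are as deposited and match GENCODE M21 for all 8 members. FPKM multiplied by gene length gave whole fragments for 100% of values (tolerance 0.001 of a step), which gave depths and counting intervals (exact Poisson, 95%, counting error only).

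limma 3.58.1 (R 4.3.3) was fitted to log2(FPKM + 1) for the 8882 genes with a mean of at least 1 FPKM, with a variance trend and no covariate, two-sided, Benjamini-Hochberg threshold 0.05, PGRN KO minus WT, after being tested on simulated data. A difference on this scale understates the change of low genes. Tables were handled with Python 3.11.15 and pandas 2.3.3.

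The members and lists were chosen with earlier results of these data known. Named genes were the 8 members, Grn, genes overlapping a member, defined partners and kinases of the IRFs (such as Stat2, Spi1, Batf, Batf2, Batf3, Irf2bp1, Irf2bp2, Irf2bpl, Tbk1, Ikbke), for each pathway list at most 3 called genes with the largest difference, and for Irf5 and Irf8 the 3 tested genes of most similar pattern, predicted models left out. Alternatives were other pseudocounts, filters and scales, no trend, quality weights, voom on recovered fragments, a loess correction for gene length (span 0.5) and leaving out each library. Values of some genes in the lists are not reported here.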

Additional observations from a re-analysis of the deposited data

How the results depend on the processing

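No paired analysis was possible because the labels name nothing that pairs WT with PGRN KO libraries. The replicate numbers are running sample numbers and say nothing about pairing. The number of members past the threshold, 2 in the reported fit, was 1 with no filter on low values, 6 with sample quality weights and 4 with the loess correction for gene length, and 0 to 3 when 1 library was left out. It was 0 without WT replicate 1 and 1 without WT replicate 2 or 3. The loess correction with PGRN KO replicate 6 left out, added after seeing the data, gave 4 members. All genes past the threshold, 2151 in the reported fit, numbered 1366 with no filter, 4225 with quality weights, 698 to 3645 with 1 library left out and 3636 with the added setting. The genes called in the pathway lists, 57 different genes in the reported fit, numbered 86 with quality weights and 30 to 74 with 1 library left out. The cause of these shifts was not tested. Irf9 was reversed in sign with the TPM scale (0.0117), quantile normalization (0.00706), the sum of fragments as library size (0.0549) and the loess correction for gene length (0.0105), with no call in any of them. No other member changed direction. Of all calls, 42.8% were higher in PGRN KO in the reported fit, 60.3% on the TPM scale and 63.0% with the sum of fragments as library size. A minimum mean of 5 FPKM left Irf3 and Irf4 untested. With 3 libraries a group, depth limits mainly Irf3 and Irf4.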
